A study of Mus musculus with 6 samples.

Results

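Mitochondria keep a small circular genome of their own, and its transcripts are the subject here: of the 55471 genes in a count table of mouse hippocampus, the 37 whose symbol begins with mt- were kept. They are 13 mRNAs, 2 rRNAs and 22 tRNAs, and none was chosen by its values. RNA-seq was performed on the hippocampus of 6 male mice, 1 library per mouse, 3 of them p300-ifKO and 3 control littermates. The strain is C57BL/6 in the labels and C57BL/6J in the methods of the study. An ifKO is an inducible forebrain knockout, in which creERT2, driven by Camk2a and therefore active in excitatory forebrain neurons, recombines a floxed gene after tamoxifen, here Ep300, which encodes the lysine acetyltransferase p300. Mice were 3 to 6 months old by the figure legend of the study, whose RNA-seq methods give a narrower range within this one. All 6, controls included, received tamoxifen 5 times (20 mg/ml, in corn oil). Controls lack creERT2 according to the treatment protocol, but the driver is named among the labels of the control libraries. Esr1, whose ligand binding domain is part of creERT2, was between 87.2 and 109 normalized counts in the control libraries and between 2416 and 4217 in the p300-ifKO libraries.

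Both strands of the mitochondrial genome are transcribed from end to end into long precursors, which are cut at the tRNAs that punctuate them. All 13 mRNAs encode subunits of the oxidative phosphorylation complexes, the respiratory chain and ATP synthase, which are otherwise built from nuclear gene products, and the rRNAs and tRNAs serve the translation of these mRNAs inside the organelle. Hippocampal neurons depend on this machinery for the ATP that ion pumping and synaptic transmission consume. Pieces of the mitochondrial genome have also been copied into chromosomes, where they lie as pseudogenes, and such copies bear directly on what short reads can measure.

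The libraries held between 23151568 and 28433823 counts. Ep300 had 1545, 1474 and 2334 normalized counts (counts divided by the DESeq2 size factor) in the control libraries and 478, 1350 and 912 in p300-ifKO replicates 1, 2 and 3. All p300-ifKO values lay below all control values, but p300-ifKO replicate 2 was close to the lower controls. The table does not resolve the recombined exon, and the tissue holds cells in which the driver is not active. In such bulk tissue, fewer cells of a type and less RNA per cell cannot be told apart. The nuclear genes with a mean normalized count of at least 100 (12240 genes) differed between libraries with their exonic length: Spearman's rho between length and the deviation of a library from the mean of all libraries was 0.29, 0.24 and 0.63 in the controls and -0.65, 0.61 and -0.41 in p300-ifKO replicates 1, 2 and 3. p300-ifKO replicates 1 and 3 thus stood apart from the other 4 libraries in this respect. The main results are given with and without p300-ifKO replicates 1 or 2 where these move them.

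A run of genes that holds 6 mRNAs had practically no counts, and 5 of these 6 mRNAs have near-identical copies in annotated genes. On chromosome 1 (GRCm38), 7 annotated pseudogenes lie side by side in an inverted copy of 4663 bases, chr1:24611535-24616197, that corresponds to chrM:6381-11043 and holds 11 mitochondrial genes whole. The first 90 bases of mt-Co2, subunit II of cytochrome c oxidase, and of its chromosome 1 copy, Gm28661, are shown because the differences between them number 0. Both are from the GENCODE M21 transcripts on GRCm38, mt-Co2 from chrM:7013-7102 on the plus strand and Gm28661 from chr1:24615476-24615565 on the minus strand.
mt-Co2: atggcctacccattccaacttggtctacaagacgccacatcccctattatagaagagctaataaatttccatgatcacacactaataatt
Gm28661: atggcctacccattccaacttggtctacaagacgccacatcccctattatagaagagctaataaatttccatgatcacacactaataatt

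Of the 635 stretches of 50 bases (the read length) in mt-Co2, 100% had an identical stretch in another annotated gene. The share was 99.9% for mt-Co3, 99.5% for mt-Atp6, 98.8% for mt-Nd4l and 98.0% for mt-Nd3. A read from such a stretch matches both places equally well, and reads with a mapping quality of 10 or less were removed before counting. Diverged copies share fewer stretches. A stretch of mt-Nd5, a subunit of complex I, is shown with the copy Gm11407 on chromosome 4 (chrM:12832-12921 and chr4:80002674-80002763, both plus strand), with the 7 bases that differ in capitals. Counted from 1 at the first base shown, the mitochondrial base first, they are T4C, A17C, C42T, C44A, A59G, G74A and C90T.
mt-Nd5: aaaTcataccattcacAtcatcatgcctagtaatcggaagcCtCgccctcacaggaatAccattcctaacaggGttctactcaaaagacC
Gm11407: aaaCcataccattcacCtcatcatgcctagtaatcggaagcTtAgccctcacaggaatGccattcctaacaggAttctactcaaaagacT

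In mt-Nd5, 7.61% of the stretches had a copy in any annotated gene, and the gene kept counts of 72129 to 125490 per library. Across the 7 mRNAs with a mean of at least 10 counts, 22.43% of 8062 stretches had a copy, and the share ranged from 0 in mt-Nd1, mt-Nd6 and mt-Cytb to 62.2% in mt-Nd4. Across the 6 other mRNAs it was 93.79% of 2704 stretches. The exception among these 6 was mt-Atp8, which shared 0 of its 155 stretches with an annotated gene. It lies within the copied block, between the counterparts of Gm28661 and Gm10925, in a gap that no annotated transcript covers, and the genome sequence of the gap was not analysed here.

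**Figure D1:**
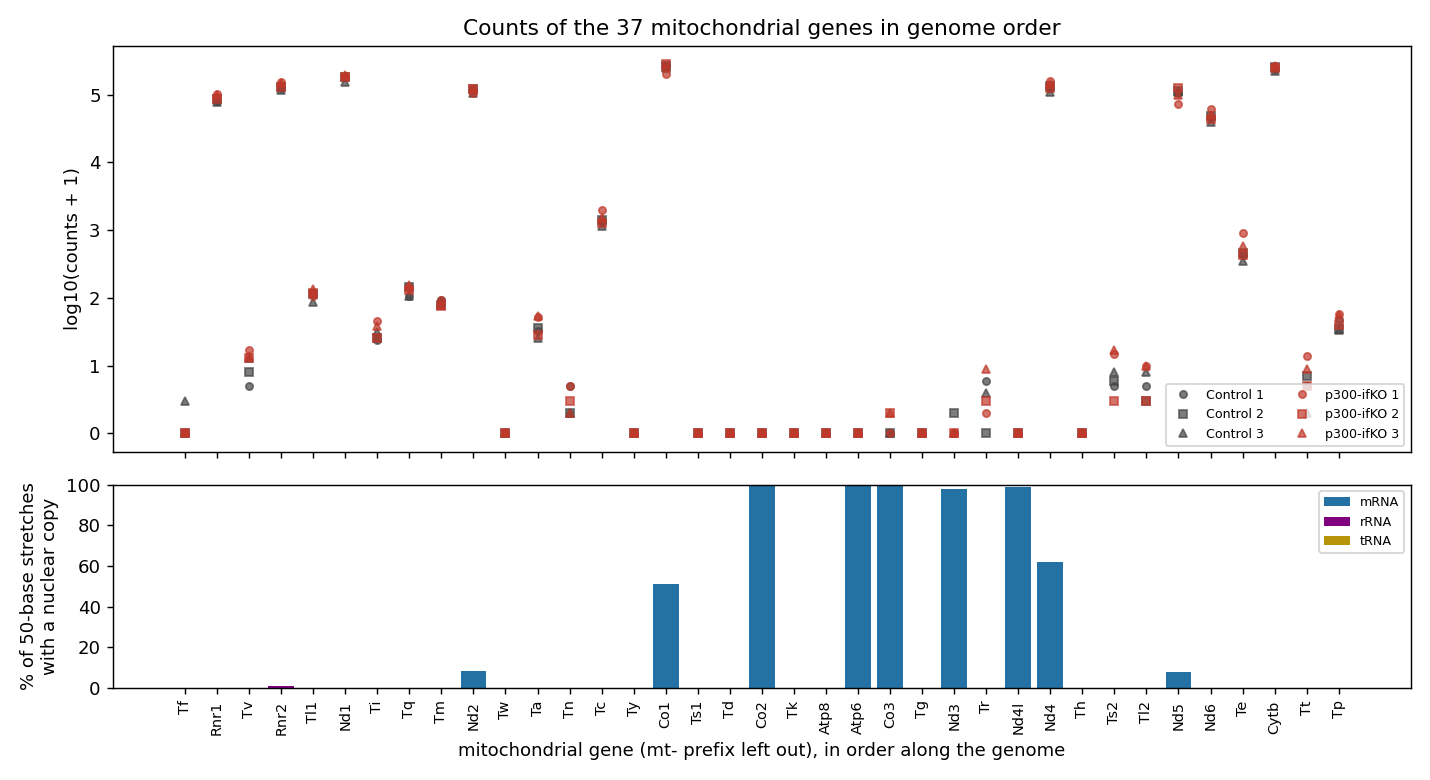
The upper panel plots log10(counts + 1) of each of the 37 mitochondrial genes in each library against the gene's place in genome order, with controls in grey and p300-ifKO in red. The lower panel gives the percentage of 50-base stretches that have an identical stretch in another annotated gene, with bars coloured by RNA class. The run from mt-Ts1 to mt-Nd4l, 11 genes, had at most 8 counts in any library, and its mRNAs other than mt-Atp8 are copied over 98.0% or more of their stretches.

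Of the 37 genes, 18 had a mean of at least 10 counts per library, 11 had 0 counts in all 6 libraries and 8 had a few. The genes at 0 were mt-Co2, mt-Atp8, mt-Atp6 and mt-Nd4l among the mRNAs and mt-Tw, mt-Ty, mt-Ts1, mt-Td, mt-Tk, mt-Tg and mt-Th among the tRNAs, and a count of 0 allows up to 3 counts in a library. For the copied genes it says nothing about their RNA. mt-Co3, subunit III of cytochrome c oxidase, had 0, 0 and 0 counts in the controls and 0, 1 and 1 in the p300-ifKO libraries, and mt-Nd3, a subunit of complex I, had 0, 1 and 0 and then 0 in each p300-ifKO library. Both subunits of ATP synthase encoded here, mt-Atp6 and mt-Atp8, were among the genes at 0, so complex V had no measured mitochondrial member and complex IV had only mt-Co1.

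The pseudogenes on chromosome 1 had between 0 and 12 counts in any library. On chromosome 2, where the copies have diverged more, Gm13341 shared 35.3% of the stretches of mt-Co2 and had 80, 98 and 93 counts in the controls and 138, 100 and 102 in the p300-ifKO libraries. Gm13340, a copy of mt-Co1, shared 27.5% of its stretches and had 77 to 107 counts. The origin of these few counts was not tested. The block on chromosome 1 keeps a constant distance to the mitochondrial coordinates except for a step of 1 base between positions 9804 and 9876, an interval that holds mt-Tr, the tRNA for arginine. mt-Tr was the gene with the most counts inside the block, with 5, 0 and 3 in the controls and 1, 2 and 8 in the p300-ifKO libraries.

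The mitochondrial genes took about 1 count in 20. Their share was 5.13%, 5.53% and 4.88% of the library in the controls and 5.68%, 4.75% and 5.40% in the p300-ifKO mice. The lowest and the highest share were both p300-ifKO, and the groups overlapped. The means were 5.18% ± 0.33 and 5.28% ± 0.48 (SD, n = 3 each), a difference of 0.0995 percentage points with a two-sided exact permutation p of 0.80, in a design whose smallest possible p is 0.1. Since 6 mRNAs were not measured, these shares are of the countable transcripts only. Without p300-ifKO replicate 1 the difference was -0.10 percentage points and without control replicate 3 it was -0.051, so that its direction rested on single libraries.

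By class, the mRNAs took 4.33% ± 0.28 of the library in controls and 4.32% ± 0.30 in p300-ifKO mice (exact permutation p = 1.0). The rRNAs took 0.824%, 0.897% and 0.793% in the controls and 1.11%, 0.762% and 0.976% in the p300-ifKO libraries (p = 0.40 by the same exact test). The tRNAs took 0.00879%, 0.00966% and 0.00773% in the controls and 0.0149%, 0.00755% and 0.0106% in the p300-ifKO libraries (exact p = 0.50). In both classes p300-ifKO replicates 1 and 3 lay above all controls and p300-ifKO replicate 2 lay below them. The Benjamini-Hochberg adjusted p over the 7 single values tested was between 0.70 and 1.0.

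**Figure D2:**
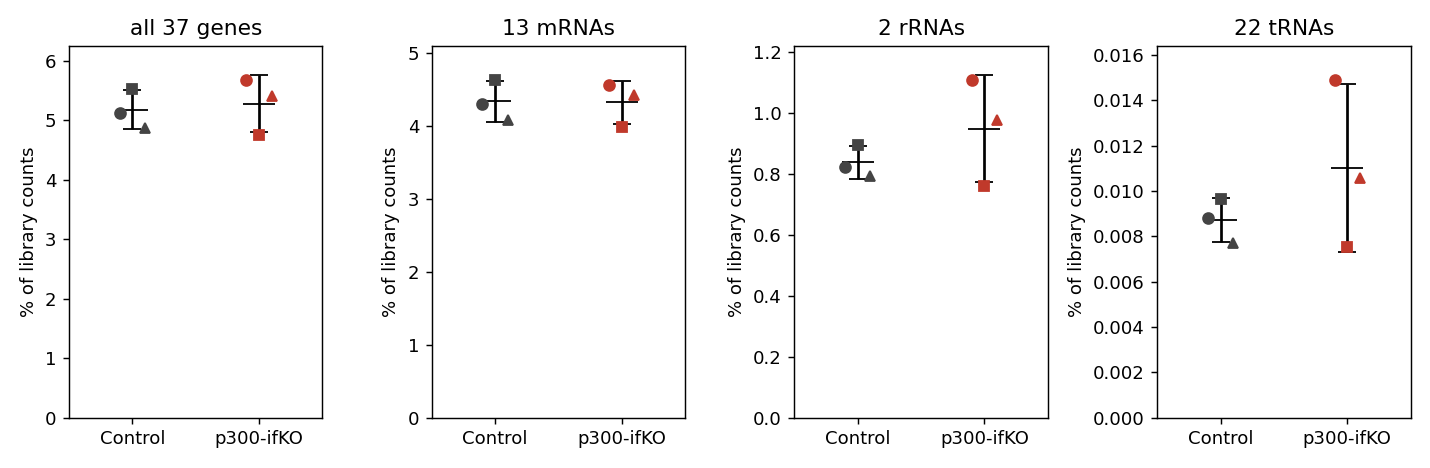
Percentage of each library's counts on all mitochondrial genes and on each class (y axes start at 0), with 1 point per mouse and the mean ± SD of 3 mice per group in black. Symbols mark replicates 1 (circle), 2 (square) and 3 (triangle). The groups overlap in each panel, and for rRNAs and tRNAs the p300-ifKO libraries spread from 0.762% to 1.11% and from 0.00755% to 0.0149% of the library.

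Ratios within the mitochondrial transcripts do not depend on the scaling of libraries. Whether they follow gene length, as the nuclear genes did, was not tested, here or for the ratio of mt-Nd6 below. The log2 ratio of rRNA to mRNA counts was very even in the controls, at -2.38, -2.37 and -2.36, and was -2.04, -2.39 and -2.18 in p300-ifKO replicates 1, 2 and 3. The difference of the means was 0.17 (exact permutation p = 0.40). The log2 ratio of tRNA to mRNA counts was -8.93, -8.90 and -9.04 in the controls against -8.26, -9.04 and -8.70 in the p300-ifKO mice, a difference of 0.29 (exact p = 0.30). In each ratio p300-ifKO replicate 2 sat at or near the controls and replicate 1 was the highest library. Without p300-ifKO replicate 1 these differences were 0.088 and 0.086. Replicate 2 was the lowest p300-ifKO library in both ratios, so leaving it out instead makes both differences larger.

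Almost all of these counts came from few genes. mRNAs made up 80.2% to 83.8% of the mitochondrial counts, rRNAs 16.0% to 19.5% and tRNAs 0.158% to 0.263%. The 5 measured subunits of complex I, the NADH dehydrogenase where electrons enter the chain, held 44.5% ± 0.37 (SD, n = 6). mt-Cytb, the cytochrome b of complex III, held 19.0% ± 0.66, and mt-Co1, the catalytic subunit of cytochrome c oxidase, 19.3% ± 2.12. The share of complex I stayed between 44.0% and 44.9% in all 6 libraries while that of mt-Co1 ranged from 15.4% in p300-ifKO replicate 1 to 21.1% in control replicate 3. As a share of mitochondrial counts mt-Co1 did not separate the groups, since p300-ifKO replicate 2 was at 20.7%, within the controls.

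Levels of different genes were compared per length, as CPM (counts scaled to 1000000 counts per library) per 1000 assignable positions. An assignable position is a place where a 50-base read touches that gene and no other and has no copy in another annotated gene. On this scale mt-Co1 had the highest level, 13740 ± 1015 (SD over 6 libraries, range 11950 to 14950). It was followed by mt-Nd4 at 10610 ± 1877, mt-Cytb at 9040 ± 926 and mt-Nd1 at 7975 ± 746. The ranges of these 4 overlapped between each neighbouring pair, although mt-Nd4 exceeded mt-Cytb, and mt-Cytb exceeded mt-Nd1, within each of the 6 libraries.

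mt-Nd2 came next at 5099 ± 275, and the ranges of mt-Nd1 and mt-Nd2 did not overlap. mt-Nd6 was at 4227 ± 863, mt-Rnr1, the small subunit rRNA, at 3925 ± 598 and mt-Rnr2, the large subunit rRNA, at 3546 ± 509, all with overlapping ranges between neighbours. mt-Nd5 was the lowest of the 9 longer genes at 2551 ± 358, with a range below that of mt-Rnr2. Complex I subunits were spread over the order, from rank 2 (mt-Nd4) to rank 9 (mt-Nd5). Both rRNAs had a lower mean level than 6 of the mRNAs, in libraries whose RNA selection is not given in the sources used here.

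The order depends on how length is counted. By exonic length mt-Cytb came first, mt-Nd1 was next and mt-Co1 and mt-Nd4 fell to ranks 3 and 5, and 2 of the 9 genes kept their rank. With positions counted whether or not they have a copy, 3 of 9 kept theirs. mt-Nd5 was the lowest of the 9 in all 3 orders. The ranks of mt-Co1 and mt-Nd4 rest on the copied shares of their stretches, 51.1% and 62.2%.

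**Figure D3:**
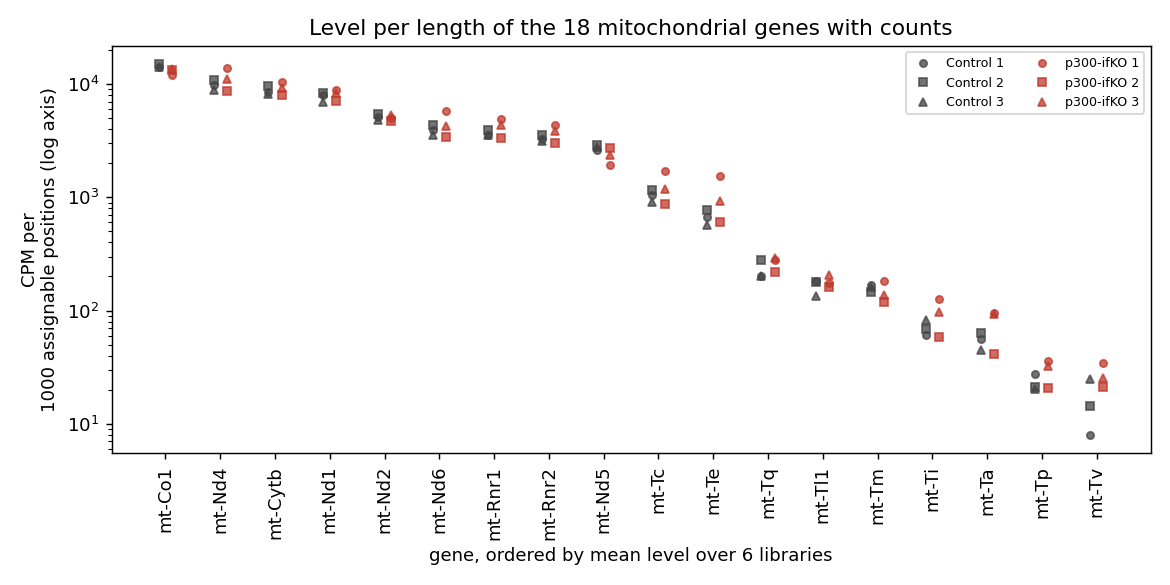
Level of the 18 genes with a mean of at least 10 counts, in CPM per 1000 assignable positions on a log axis, ordered by the mean of 6 libraries, with controls in grey and p300-ifKO in red. Levels fall from 13740 for mt-Co1 to 2551 for mt-Nd5 and then to 21.4 for mt-Tv, the lowest of the 9 tRNAs shown.

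mt-Nd6 is the 1 mRNA read from the other strand of the genome, and the composition of the strands differs. Its first 60 bases (chrM:14011-14070, minus strand) are shown above those of mt-Nd1 (chrM:2751-2810, plus strand), which is read like the other mRNAs, with the first codon in capitals.
mt-Nd6: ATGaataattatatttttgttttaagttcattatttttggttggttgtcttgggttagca
mt-Nd1: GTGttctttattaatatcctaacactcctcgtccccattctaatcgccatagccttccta

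mt-Nd6 held 28.1% G and 6.0% C in its coding strand against 11.6% G and 26.0% C in mt-Nd1. mt-Nd6 overlaps mt-Nd5 by 14 bases on the opposite strand, and the strand setting of the counting is not stated, so counts on mt-Nd6 may include RNA from the strand opposite to it. Of the 12 other mRNAs, 6 had practically no counts, so a ratio to their sum rests on the measured ones. The log2 ratio of mt-Nd6 to the 12 other mRNAs was -4.51, -4.47 and -4.60 in the controls and -4.02, -4.62 and -4.44 in p300-ifKO replicates 1, 2 and 3. The difference of 0.17 had an exact permutation p of 0.50, and without p300-ifKO replicate 1 it was -0.0041.

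Among the 7 measured mRNAs, mt-Nd5 and mt-Co1 had the lowest fold changes in p300-ifKO mice and mt-Nd4 and mt-Nd6 the highest, and none passed the test. Values are normalized counts in control replicates 1, 2 and 3 and then p300-ifKO replicates 1, 2 and 3, log2 fold changes are p300-ifKO against control with their standard error, and adjusted p-values are from the Wald test of DESeq2 over all 32773 genes tested. By this test 0 of the 37 mitochondrial genes were called, against 0.0061% of all genes tested (2 genes), and 0 had an unadjusted p under 0.05, against 1.32% (432 genes). By the edgeR quasi-likelihood test 0 were called as well, and with 1 surrogate variable added to DESeq2 0 were called, against 0.00915% of all genes (3 genes). All 18 genes with counts had an adjusted p of 0.99 in DESeq2. Ep300, the targeted gene, was not called either, with a log2 fold change of -0.97 (SE 0.33) and a DESeq2 adjusted p of 0.99. Of the 2 genes called by DESeq2 in the whole table, 1 was Esr1, which is part of creERT2. The study reports Esr1 and Arsi as the only genes that differed in p300-ifKO mice and ascribes both to the driver line.

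mt-Co1 had 260400, 278300 and 256600 normalized counts in the controls and 217500, 247400 and 246200 in the p300-ifKO libraries. All p300-ifKO libraries lay below all controls, with a log2 fold change of -0.16 (SE 0.11, 95% interval -0.38 to 0.058, unadjusted p = 0.149 by DESeq2). It was the only 1 of the 18 members whose groups did not overlap, and groups did not overlap in 7.46% of the 17100 genes with a mean count of at least 10, so this count of members is no more than the background gives. mt-Nd5 had 106400, 119000 and 113500 in the controls and 77470, 110900 and 94340 in the p300-ifKO libraries. Here p300-ifKO replicates 1 and 3 lay below all controls and replicate 2 among them, with a log2 fold change of -0.26 (SE 0.16, 95% interval -0.57 to 0.052). Without p300-ifKO replicate 2 it was -0.39 with a DESeq2 adjusted p of 0.045, in a fit that called 7.9% of the 11726 genes tested, and without p300-ifKO replicate 1 it was -0.14.

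mt-Nd4 had 124400, 140700 and 112100 normalized counts in the controls and 173500, 111000 and 136900 in the p300-ifKO libraries (log2 fold change 0.16, SE 0.19). mt-Nd6 had 44930, 50930 and 40200 in the controls and 65780, 39070 and 47660 in the p300-ifKO libraries (log2 fold change 0.16, SE 0.21). For both genes p300-ifKO replicate 1 was the highest library and p300-ifKO replicate 2 the lowest. Without p300-ifKO replicate 1 the log2 fold changes were -0.021 for mt-Nd4 and -0.066 for mt-Nd6, and without replicate 2 they were 0.31 and 0.33. The p300-ifKO libraries of both genes thus enclosed the whole range of the controls.

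mt-Nd1 had 182700, 192200 and 158500 normalized counts in the controls and 199800, 161900 and 186600 in the p300-ifKO libraries. mt-Nd2 had 115600, 126700 and 109600 in the controls and 113500, 108500 and 117900 in the p300-ifKO libraries. mt-Cytb had 235900, 268900 and 224700 in the controls and 285400, 221900 and 252000 in the p300-ifKO libraries. These 3 genes had the smallest differences, with log2 fold changes of 0.040, -0.050 and 0.058 and standard errors of 0.14, 0.11 and 0.15. Their 95% intervals reached from -0.27 to 0.34 at the widest ends. Of the 7 measured mRNAs, 4 were higher and 3 lower, with a median log2 fold change of 0.040, and the 5 subunits of complex I were on both sides of 0.

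The 7 measured mRNAs tended to follow their length in each library, but not all of them did. mt-Nd4, among the longer of them at 1378 bases, deviated by 0.38 and -0.26 on the log2 scale in p300-ifKO replicates 1 and 2, against the trend. Spearman's rho between exonic length and the deviation of a library from the mean of all libraries was 0.61, 0.61 and 0.75 in the controls and -0.68, 0.68 and -0.54 in p300-ifKO replicates 1, 2 and 3. In each library its sign was that of the nuclear genes given above. With 7 genes, which share each library, this is a description, and its part in the lower values of mt-Nd5 and mt-Co1, the longest of the 7, was not tested.

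**Figure D4:**
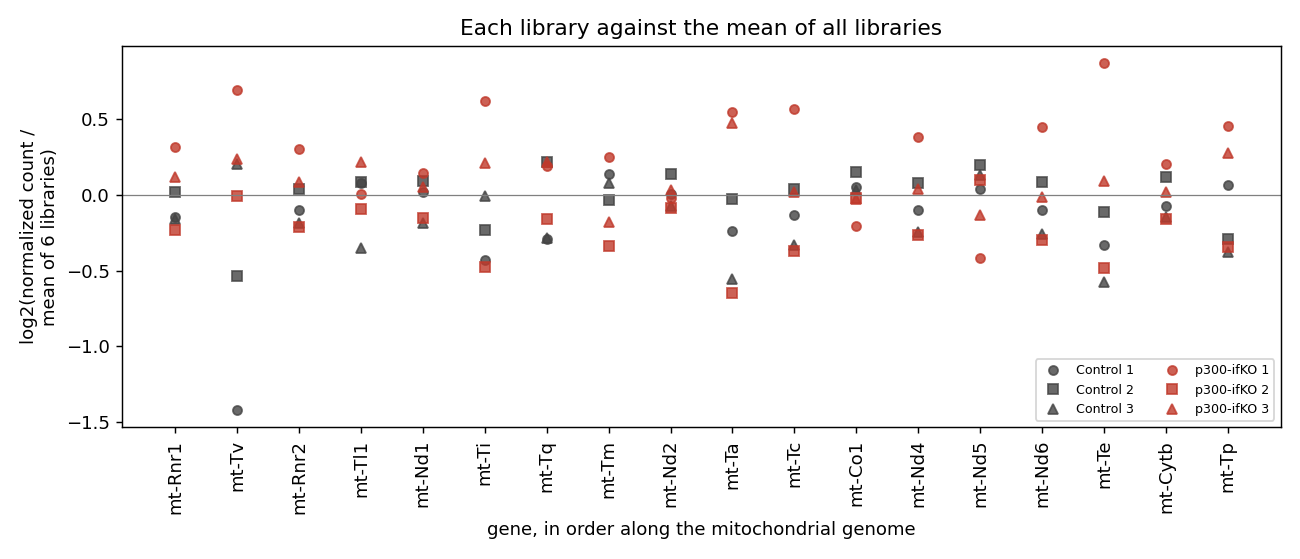
Deviation of each library from the mean of 6 libraries, on a log2 scale, for the 18 genes with counts in genome order, with controls in grey and p300-ifKO in red. p300-ifKO replicate 1 (red circles) is the highest library for 13 of the 18 genes and the lowest for 2, mt-Co1 and mt-Nd5.

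The rRNAs ranked the 6 libraries in the same order. mt-Rnr1 had 80350, 90040 and 79570 normalized counts in the controls and 110500, 75710 and 96570 in the p300-ifKO libraries. mt-Rnr2 had 125100, 138100 and 117900 in the controls and 165600, 115700 and 142600 in the p300-ifKO libraries. In both, p300-ifKO replicates 1 and 3 lay above all controls and replicate 2 below them. The log2 fold changes were 0.18 (SE 0.17) and 0.15 (SE 0.16), and were 0.047 and 0.023 when p300-ifKO replicate 1 was left out. When p300-ifKO replicate 2 was left out they were 0.32 and 0.28, with DESeq2 adjusted p-values of 0.082 and 0.13.

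The tRNAs, which carry amino acids to the mitochondrial ribosome, are short and lie end to end with other genes, so few 50-base reads can be assigned to them. A set of 3 is shown because these tRNAs held counts and have different neighbours: mt-Tc for cysteine (chrM:5192-5257, minus strand) and mt-Te for glutamate (chrM:14071-14139, minus strand), the ones with the most counts, and mt-Tl1 for leucine (chrM:2676-2750, plus strand), which lies directly between mt-Rnr2 and mt-Nd1. They are printed as the gene, with t for u.
mt-Tc: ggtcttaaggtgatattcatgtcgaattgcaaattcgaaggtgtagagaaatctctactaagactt
mt-Te: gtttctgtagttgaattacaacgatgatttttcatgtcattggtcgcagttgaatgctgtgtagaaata
mt-Tl1: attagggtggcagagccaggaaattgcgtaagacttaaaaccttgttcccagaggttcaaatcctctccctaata

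The 8 tRNAs read from the minus strand of the annotation held 89.4% of all tRNA counts, with 1650 to 3158 counts per library, and 5 of them had a mean of at least 10 counts. The 14 on the plus strand held 235 to 303 counts per library, with 4 past that mean. Most of the minus-strand counts were those of mt-Tc, 1140 to 2012 per library, and mt-Te, 347 to 898, so the share rests mainly on this pair. By default the counting tool counts a read that touches a tRNA and its neighbour for neither and does not use strand, but the settings used are not stated. Per length, mt-Tc reached 1148 ± 299 and mt-Te 847 ± 368 CPM per 1000 assignable positions (51 and 25 positions), and the other 7 were between 21.4 and 247.

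mt-Te had the lowest unadjusted p of the members. It had 421, 488 and 354 normalized counts in the controls and 965, 377 and 563 in the p300-ifKO libraries. p300-ifKO replicates 1 and 3 lay above all controls and replicate 2 among them, with a log2 fold change of 0.59 (SE 0.31, 95% interval -0.017 to 1.20, unadjusted p = 0.0567 by DESeq2). Without p300-ifKO replicate 2 it was 0.86 with a DESeq2 adjusted p of 0.022, and without p300-ifKO replicate 1 it was 0.16. mt-Te lies next to mt-Nd6 on the same strand. Its highest library, p300-ifKO replicate 1, was also that of mt-Nd6, but this library was the highest for 13 of the 18 genes with counts.

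mt-Tc had 1329, 1498 and 1163 normalized counts in the controls and 2161, 1130 and 1481 in the p300-ifKO libraries, with a log2 fold change of 0.26 (SE 0.24). mt-Tp, for proline, had 45.7, 35.7 and 33.7 in the controls and 60.1, 34.5 and 53.0 in the p300-ifKO libraries, and mt-Ta, for alanine, had 31.8, 36.8 and 25.5 and then 54.8, 23.9 and 52.1. mt-Tq, for glutamine, had 105, 150 and 106 in the controls and 147, 116 and 150 in the p300-ifKO libraries. In these 4 minus-strand tRNAs the groups overlapped, and their log2 fold changes lay between 0.19 and 0.47. Without p300-ifKO replicate 1 those of mt-Tc, mt-Tp and mt-Ta were -0.028, 0.18 and 0.27. The same 3 tRNAs were at 0.46, 0.56 and 0.77 when p300-ifKO replicate 2 was left out. That of mt-Tq was 0.38 without control replicate 2.

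On the plus strand, mt-Tl1 had 118, 119 and 87.8 normalized counts in the controls and 113, 105 and 130 in the p300-ifKO libraries. mt-Tm, for methionine, had 92.5, 82.0 and 88.8 in the controls and 99.9, 66.3 and 74.3 in the p300-ifKO libraries. mt-Tm was the only tRNA of the 9 with a lower mean in p300-ifKO mice, with a log2 fold change of -0.14 (SE 0.26), which was -0.32 without p300-ifKO replicate 1 and -0.011 without replicate 2. mt-Ti, for isoleucine, had 22.9, 26.3 and 30.6 in the controls and 47.3, 22.1 and 35.7 in the p300-ifKO libraries. mt-Tv, for valine, had 3.98, 7.35 and 12.2 in the controls and 17.2, 10.6 and 12.5 in the p300-ifKO libraries. The log2 fold change of mt-Ti was 0.39, with 0.12 without p300-ifKO replicate 1 and 0.64 without replicate 2. That of mt-Tv was 0.77, and 0.45 without control replicate 1. At these depths the standard errors were 0.42 for mt-Ti and 0.65 for mt-Tv on the log2 scale, and both 95% intervals (-0.43 to 1.20 and -0.51 to 2.05) include 0 as well as the log2 fold change of mt-Te, 0.59. The remaining tRNAs with any counts, mt-Tf, mt-Tn, mt-Tr, mt-Ts2, mt-Tl2 and mt-Tt, had at most 16 counts in a library.

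Over the 18 genes with a mean of at least 10 counts, 14 had a higher mean in p300-ifKO mice and 4 a lower mean, against 49.3% with a higher one among the 17100 genes with a mean count of at least 10. The median log2 fold change was 0.16 over the 18 genes, 0.040 over the mRNAs, 0.17 over the rRNAs and 0.35 over the tRNAs, and was -0.046 over all genes tested and -0.0044 over those with a mean of at least 100. The members share precursors and libraries and are not independent of each other. Without p300-ifKO replicate 1 the split of the 18 genes was 9 higher and 9 lower, and all 7 measured mRNAs were lower, with a median of -0.052. Without p300-ifKO replicate 2 the split stayed at 14 higher and 4 lower, and the median over the mRNAs was 0.12. With 1 surrogate variable the split was 7 higher and 11 lower. That variable was 0.10, 0.077 and 0.44 in the controls and -0.82, 0.32 and -0.13 in p300-ifKO replicates 1, 2 and 3. It mainly set p300-ifKO replicate 1 apart, so this fit is not a check separate from leaving that library out.

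The nuclear genes that supply the other subunits of these complexes were read from lists. None of the 74 matched and tested subunits of complexes I to V passed the test. Of the 74, 73 were higher in p300-ifKO mice and 1 was lower, against 49.3% higher among the 17100 genes with a mean count of at least 10. The median log2 fold change was 0.37, beside 0.040 for the 7 mitochondrial mRNAs. By complex the medians were 0.37 for I (36 of 36 higher), 0.28 for II (4 of 4), 0.42 for III (9 of 9), 0.43 for IV (11 of 11) and 0.34 for V (13 of 14).

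Cox4i1, a subunit of the complex that holds mt-Co1, had 9729, 9939 and 8527 normalized counts in the controls and 18480, 8965 and 11910 in the p300-ifKO libraries, a log2 fold change of 0.48 (SE 0.25). Ndufb9 had the highest fold change of those with a mean of at least 100, with 2224, 2303 and 1835 in the controls and 4568, 1975 and 2800 in the p300-ifKO libraries, and Atp5l the lowest, with 134, 129 and 158 and then 98.8, 149 and 101. p300-ifKO replicate 1 stood highest for Cox4i1 and Ndufb9 and lowest for Atp5l. The median deviation of the 74 genes from the mean of all libraries was 0.64 in p300-ifKO replicate 1, 0.033 in replicate 3 and between -0.33 and -0.13 in the other 4 libraries. Without p300-ifKO replicate 1 the median fold change was 0.080 with 68 of 74 higher, and without p300-ifKO replicate 2 it was 0.57 with 46 of 74 called, in the fit that called 7.9% of all genes tested. With 1 surrogate variable the split was 36 higher against 38 lower and the median -0.0010. The part of exonic length in the values of these genes and of the nuclear lists below was not tested.

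The mitochondrial ribosome, which joins mt-Rnr1 and mt-Rnr2 to proteins made in the cytosol, had 74 of 78 protein genes higher, with a median log2 fold change of 0.27. Mrps21 was the highest of them (0.58, SE 0.26) and Mrps5 the lowest at -0.011. Genes for the transcription of mitochondrial DNA had a median of 0.095 (7 of 10 higher), from Mrpl12 at 0.34 to Tfb2m at -0.30. Those for its replication had a median of 0.077 (5 of 8 higher), from Mgme1 at 0.22 to Polg, the catalytic subunit of the DNA polymerase, at -0.057. RNA processing and decay had a median of 0.086 (26 of 35 higher), from Pus1 at 0.45 to Nsun3 at -0.20, and tRNA charging one of 0.070 (19 of 23 higher), from Rars2 at 0.26 to Lars2 at -0.91. Regulators of mitochondrial biogenesis had a median of -0.076 (5 of 12 higher), from Sirt3 at 0.20 to Ppargc1a, the coactivator PGC-1α, at -0.31. None of the genes in these lists passed the DESeq2 test, and without p300-ifKO replicate 1 the medians were 0.037 for the mitoribosome, 0.012 for transcription and 0.010 for replication. Without control replicate 3 the medians for transcription and replication were 0.031 and 0.019.

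**Figure D5:**
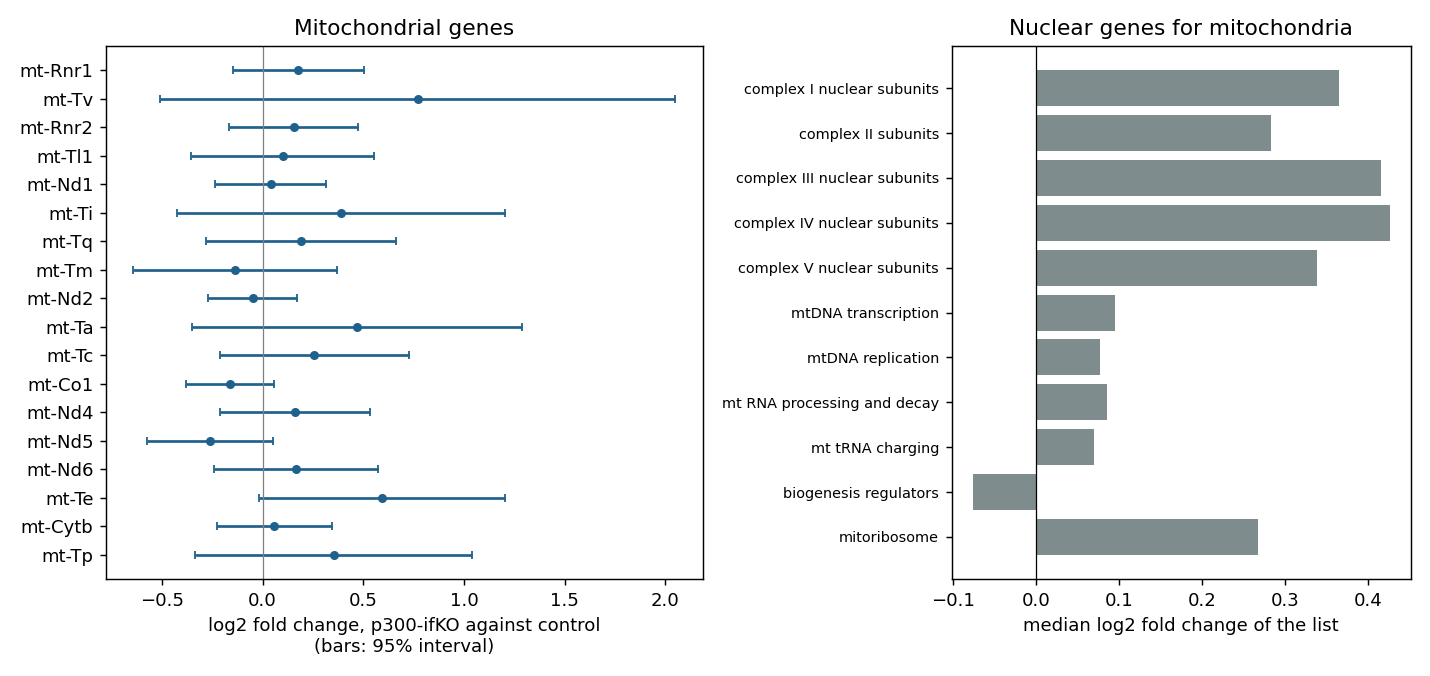
Left, the log2 fold change of p300-ifKO against control (x axis) for the 18 mitochondrial genes with counts, with 95% intervals from DESeq2. Right, the median log2 fold change of each list of nuclear genes for mitochondria, with bars starting at 0. The intervals of all 18 genes include 0, and the medians for complexes I to V lie between 0.28 and 0.43.

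Lars2, the leucyl-tRNA synthetase that charges mt-Tl1 and mt-Tl2, had 18650 normalized counts in control replicate 3 and between 3717 and 5102 in the other 5 libraries. Its low fold change therefore rested on 1 control library.

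Markers of cell types in the tissue were compared in the same fit, and none was called. Oligodendrocyte markers were higher in 4 of 4 (median log2 fold change 0.23), with a summed level of 3269 to 4446 CPM in controls and 3642 to 4695 in p300-ifKO mice. Excitatory neuron markers were higher in 1 of 6 (median -0.015, 5612 to 6313 against 5482 to 6558) and interneuron markers in 0 of 3 (median -0.14, 610 to 693 against 537 to 616). Astrocyte markers were higher in 2 of 4 (median -0.076, 1308 to 1355 against 1248 to 1254), with groups that did not overlap in their summed level. They ranged from Gfap at 0.17 to Slc1a3 at -0.25, with control means of 8745 and 20360 normalized counts, so that Slc1a3 weighs more in the sum. The summed level of microglia markers did not overlap either, in the other direction (211.7 to 223.9 against 225.5 to 231.9). For single genes with a mean count of at least 10, normalized counts of the groups did not overlap in 7.46%. Microglia (2 of 4, median 0.047), endothelium (1 of 3, -0.16), choroid plexus (3 of 3, 0.42) and blood (0 of 3, -0.16) completed the set. No marker was at 0 in all libraries, and the part of these markers in the mitochondrial values was not tested.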

How the data were processed

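Raw counts per gene were deposited by the authors. Per the methods of the study, 50 bp single-end reads of total hippocampal RNA were aligned with STAR (2.6.1) to GRCm38, reads with a mapping quality above 10 were kept and those on exons of Ensembl release 99 genes were counted with Rsubread. The submitters' processing notes also name FastQC 0.11.8, Trim Galore 0.6.4 and DESeq2 1.30.1. Strand setting and RNA selection are not given in the sources used here. The mapping quality limit lowers genes with identical copies, and counting reads on 1 gene only, if the default was used, lowers overlapping genes.

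Groups and replicate numbers came from the sample titles. Of 55471 genes, 55230 (99.57%) matched GENCODE M21, the source of symbols, coordinates and sequences. Columns of per-sample values left unused numbered 0. No genome sequence was used, so copies were looked up in annotated transcripts only.

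The whole table was fitted with DESeq2 (1.42.0, R 4.3.3): a two-sided Wald test, median-of-ratios size factors, no covariate, default filters and Benjamini-Hochberg adjustment over 32773 genes, threshold 0.05. Fits were tested on simulated data. Single values per library were compared by two-sided exact permutation tests, whose smallest p is 0.1 at 3 against 3. Alternatives used edgeR 4.0.16, limma 3.58.1 (voom), other scalings and filters, a replicate block and 1 surrogate variable (sva 3.50.0). The surrogate variable came from genes with a mean normalized count above 10, a limit set after other limits had been tried, to match an earlier analysis of these data. Its most extreme value, -0.82, was that of p300-ifKO replicate 1. The 37 genes are all those with the mt- prefix. Values in every library are given for mRNAs, rRNAs and tRNAs with a mean of at least 10 counts, and of each nuclear list the highest and lowest fold change among genes with a mean normalized count of at least 100. Cox4i1 and Lars2 are such genes. In the 11 nuclear lists, 240 of 243 genes matched. The members and lists, and the 8 marker lists, were chosen with earlier results of these data known. Limits for counts of 0 cover counting error only. The 95% intervals were computed from the DESeq2 standard errors, and they and the p-values rest on the spread between 3 mice per group.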

Additional observations from a re-analysis of the deposited data

How the results depend on the processing

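The count of 0 called mitochondrial genes was the same with edgeR, limma-voom, other scalings, other filters, the replicate block and 1 surrogate variable. Leaving out single libraries gave 0 to 1 called higher and 0 to 1 called lower, the calls being mt-Te and mt-Nd5 without p300-ifKO replicate 2. The labels use the same mouse numbers in both groups, and whether same-numbered mice were paired is not stated. Correlations of same-numbered deviations were 0.39, -0.42 and 0.14, which are too few to decide it. The replicate block changed no call, with a median log2 fold change of 0.039 for the 7 mRNAs. With 1 surrogate variable that median was -0.098, and the log2 fold changes turned to -0.021 (mt-Rnr1), -0.043 (mt-Rnr2), -0.088 (mt-Nd1), -0.13 (mt-Tc), -0.098 (mt-Nd4), -0.14 (mt-Nd6) and -0.086 (mt-Cytb). In the same fit the medians were -0.0097, 0.020, -0.0050, 0.019 and 0.0018 for complexes I to V, -0.039 for mtDNA transcription, 0.0058 for RNA processing, 0.019 for tRNA charging, 0.048 for biogenesis and -0.023 for the mitoribosome. Leaving out single libraries turned the sign of mt-Tl1 (-0.028 to 0.17), mt-Nd1 (-0.034 to 0.12), mt-Nd2 (-0.094 to 0.011), mt-Tc (-0.028 to 0.46), mt-Nd4 (-0.021 to 0.31), mt-Nd6 (-0.066 to 0.33), mt-Cytb (-0.038 to 0.15) and the mt-Nd6 ratio (-0.0041 to 0.30). The difference in library share ranged from -0.10 to 0.36 percentage points over such fits, and was -0.012 without the rRNAs and -0.014 for mRNAs only. List medians over these fits were 0.074 to 0.57 (complex I), 0.076 to 0.43 (II), 0.078 to 0.63 (III), 0.11 to 0.63 (IV), 0.071 to 0.53 (V), 0.019 to 0.14 (RNA processing), 0.034 to 0.13 (tRNA charging), -0.17 to 0.021 (biogenesis) and 0.037 to 0.42 (mitoribosome). Each lowest value for complexes I to V and the mitoribosome was without p300-ifKO replicate 1, and each highest without p300-ifKO replicate 2. Calls ranged from 0 to 22 (complex I), 0 to 1 (II), 0 to 5 (III), 0 to 10 (IV), 0 to 8 (V), 0 to 1 (mtDNA transcription and biogenesis) and 0 to 20 (mitoribosome), the highest of each from the fit without p300-ifKO replicate 2, which called 7.9% of all genes tested. Of the 9 levels per length, 2 kept their rank by exonic length and 3 with copied positions included. The order follows from the count of positions, and for the other changes the cause was not tested.

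Depth limits the tRNAs with under 100 counts. The 6 mRNAs of the run without counts could not be compared between groups.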
